A study of Homo sapiens with 6 samples.

Results

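The deposited list of H3K4me2 peaks in control K562 cells runs past the point where the matching list for Staufen 2 knockdown stops, and the peaks past that point are described here. They were chosen by position alone: every peak that starts on chromosome 4 after 185623562, on chromosome 5, or on chromosome 6 up to 27592808, where the control list ends (build hg38). This gave 5417 of the 65507 peaks of the list, of which 64 lie on chromosome 4, 4067 on chromosome 5 and 1286 on chromosome 6. Both H3K4me2 lists hold 65507 peaks and end there in order of chromosome name. The Staufen 2 knockdown list therefore has 0 peaks here, which is where the list ends and not a measurement of H3K4me2 after knockdown. H3K4me2 after knockdown was not analysed here. The H3K4me3 lists of both conditions cover the same stretch, with 1305 peaks in the control and 1742 after knockdown.

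K562 is an established human leukaemia line grown from chronic myeloid leukaemia in blast crisis. The cells carried a short hairpin RNA, which was either a control (shControl) or directed at Staufen 2 (shStau2), a protein that binds double-stranded RNA. Chromatin immunoprecipitation followed by sequencing was done once for each mark and hairpin, with 1 input library per hairpin, so no difference between libraries has a replicate check or a test. Intervals in brackets are exact Clopper-Pearson 95% intervals of a share and cover counting error only. The libraries used held 26221869 tags for H3K4me2 under shControl, 30744332 for H3K4me3 under shControl and 26320758 for H3K4me3 under shStau2 after duplicates were removed.

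Histone H3 is methylated at lysine 4 by the SET1 and MLL enzymes. Trimethylation (H3K4me3) marks the nucleosomes beside active or poised gene starts, above all at promoters rich in the CG dinucleotide. Dimethylation (H3K4me2) flanks the same starts and also marks enhancers, the distal elements through which blood cell factors act, so a dimethylated site without trimethylation is often distal. Chromosome 5 carries genes whose loss defines the 5q deletion of myeloid disease, 3 clusters of protocadherin genes and the cytokine genes of 5q31, and the start of chromosome 6 carries the largest cluster of histone genes and a large cluster of transfer RNA genes.

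Promoters of 4 genes are shown because they stand for the states in which gene starts were found, and a protocadherin promoter because that family recurs below. Each line gives the 250 bases before the annotated start, 5′ to 3′ along the gene, from RefSeq on GRCh38.p14, with every CG in capitals. In EGR1 all 250 bases lay under H3K4me2 and H3K4me3 peaks. In MYO10 all 250 lay under an H3K4me2 peak, 118 under an H3K4me3 peak of shStau2 and 0 under one of shControl. In CD74 64 bases lay under an H3K4me2 peak and 0 under H3K4me3. In GABRA6 no base lay under either mark. In PCDHB15 87 bases lay under an H3K4me2 peak, 82 under an H3K4me3 peak of shStau2 and 0 under one of shControl.
EGR1 (chr5:138465229-138465478, + strand): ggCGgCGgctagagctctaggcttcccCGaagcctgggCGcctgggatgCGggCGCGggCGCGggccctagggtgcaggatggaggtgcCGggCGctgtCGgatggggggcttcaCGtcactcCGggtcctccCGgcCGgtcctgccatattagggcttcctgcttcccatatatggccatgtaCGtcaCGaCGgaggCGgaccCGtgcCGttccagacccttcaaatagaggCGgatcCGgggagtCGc
MYO10 (chr5:16936289-16936538, - strand): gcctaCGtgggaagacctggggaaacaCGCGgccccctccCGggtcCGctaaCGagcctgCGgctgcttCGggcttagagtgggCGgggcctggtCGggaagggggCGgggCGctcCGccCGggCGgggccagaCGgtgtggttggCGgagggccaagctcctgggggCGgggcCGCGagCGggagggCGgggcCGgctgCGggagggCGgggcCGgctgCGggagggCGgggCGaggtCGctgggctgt
CD74 (chr5:150412911-150413160, - strand): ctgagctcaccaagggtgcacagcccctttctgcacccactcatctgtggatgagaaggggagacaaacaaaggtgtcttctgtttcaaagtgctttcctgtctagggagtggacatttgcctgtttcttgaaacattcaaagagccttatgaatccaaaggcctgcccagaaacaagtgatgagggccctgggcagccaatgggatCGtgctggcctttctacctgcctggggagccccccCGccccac
GABRA6 (chr5:161685471-161685720, + strand): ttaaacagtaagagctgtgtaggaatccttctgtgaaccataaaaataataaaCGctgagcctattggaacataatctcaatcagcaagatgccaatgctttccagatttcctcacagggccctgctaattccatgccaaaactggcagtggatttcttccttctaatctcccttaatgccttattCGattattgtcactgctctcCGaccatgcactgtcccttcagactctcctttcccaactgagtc
PCDHB15 (chr5:141245145-141245394, + strand): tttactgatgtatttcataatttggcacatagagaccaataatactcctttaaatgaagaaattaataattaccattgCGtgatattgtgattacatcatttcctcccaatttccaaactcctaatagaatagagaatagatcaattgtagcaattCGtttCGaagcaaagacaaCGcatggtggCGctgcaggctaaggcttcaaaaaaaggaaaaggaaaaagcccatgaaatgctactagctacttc
The count of CG in these 250 bases was 25 in EGR1 and 30 in MYO10, against 2 in CD74, 3 in GABRA6 and 5 in PCDHB15.

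The 5417 H3K4me2 peaks covered 5.05 Mb. Their median width was 587 bases, with quartiles of 320 and 1142 bases and a maximum of 11895. Their fold enrichment over input, the authors' ratio of pileup at the summit to the local background, had a median of 5.83, with quartiles of 4.35 and 10.1 and a range of 2.00 to 50.4. The 60090 peaks of the rest of the list were close to this, of median width 623 bases and median fold 6.26. The median fold was 5.28 on the 64 peaks of chromosome 4, 5.84 on chromosome 5 and 5.84 on chromosome 6. Set beside the 16 chromosomes that the list holds whole before this stretch, the chromosome 5 median fold lay near the bottom of the range, which ran from 5.81 on chromosome 2 to 8.95 on chromosome 19.

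Most of these sites lay away from gene starts. Of the 5417 peaks, 919 (17.0%, 16.0 to 18.0) overlapped the 1 kb on either side of an annotated protein-coding start, 1956 (36.1%) lay elsewhere inside a protein-coding gene and 2542 (46.9%) lay outside any. The shares were 19.8%, 41.3% and 38.9% in the rest of the list. The annotation used gives no exons, so gene bodies were not divided into exons and introns. Peaks at gene starts were stronger and wider, with medians of 14.9 fold and 1507 bases, against 5.20 and 480 bases in gene bodies and 5.37 and 501.5 bases outside genes.

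H3K4me3 lay over a minority of the H3K4me2 peaks in both conditions. Under shControl, 1376 of 5417 (25.4%, 24.2 to 26.6) were overlapped by an H3K4me3 peak, where the whole H3K4me2 list gave 28.7%. Under shStau2 the count was 1839 (33.9%, 32.7 to 35.2), where the whole list gave 36.3%. Divided by both lists, 1371 peaks (25.3%) had H3K4me3 in both, 468 (8.64%, 7.90 to 9.42) under shStau2 only, 5 (0.092%) under shControl only and 3573 (66.0%) in neither. The whole H3K4me2 list gave 7.67% for shStau2 only and 0.084% for shControl only. The balance depended on the threshold: with equal numbers of H3K4me3 peaks the counts were 283 and 22, and with thresholds that allow for the genome-wide difference in fold, described below, they were 109 and 78. The stretch thus had its excess of sites marked under shStau2 at a share close to that of the list as a whole. On chromosome 4 the share with H3K4me3 under shStau2 only was 20.3% (11.3 to 32.2), but it rests on 13 of 64 peaks. On chromosome 5 it was 8.70%, inside the range over the 16 whole chromosomes, from 6.38% on chromosome 17 to 9.90% on chromosome 13.

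The share of sites with H3K4me3 was higher where H3K4me2 was stronger. With the peaks divided by H3K4me2 fold into 10 groups of equal size, shControl H3K4me3 lay over 2.95% of the weakest group, 4.43% of the fifth, 39.7% of the eighth and 95.4% of the strongest. The same shares under shStau2 were 7.20%, 13.1%, 54.3% and 98.7%. The sites with H3K4me3 under shStau2 only were most frequent in the middle, at 13.9%, 15.7% and 15.0% of the sixth, the seventh and the eighth group, and made up 3.32% of the strongest, where nearly every site was marked in both conditions. Stronger peaks were also wider, from a median of 292 bases in the weakest group to 2005 in the strongest, and the part of width in these shares was not tested. The peaks with H3K4me3 in both lists had a median H3K4me2 fold of 15.0 and a width of 1574 bases. Those with H3K4me3 under shStau2 only had 7.01 and 686 bases, and those with none had 4.88 and 406 bases.

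**Figure D1:**
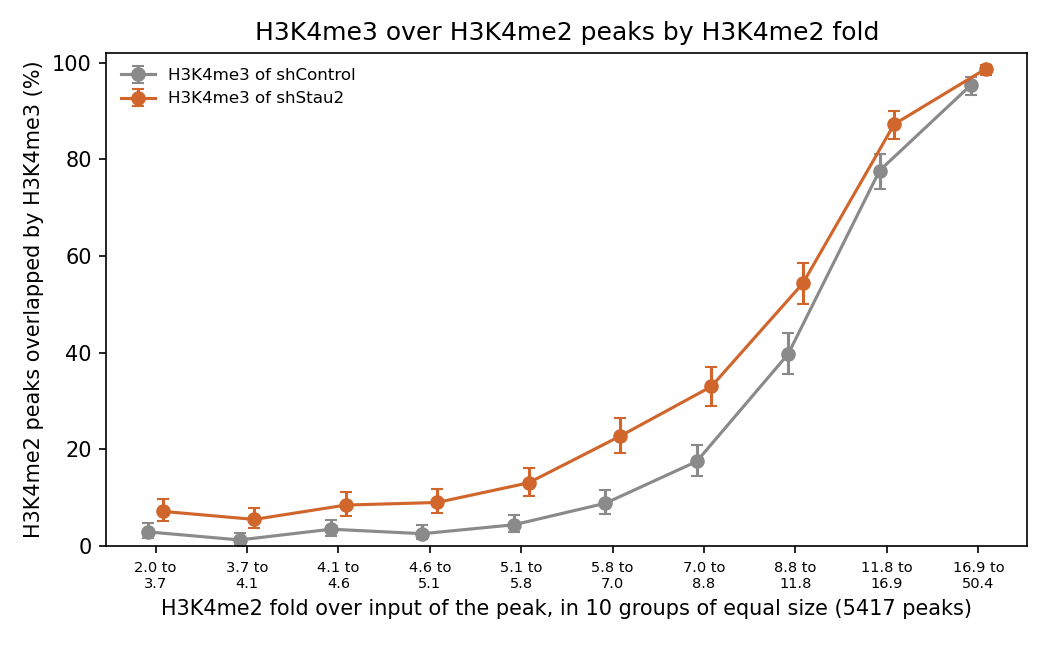
Share of the 5417 H3K4me2 peaks of shControl overlapped by an H3K4me3 peak (vertical axis, %) in 10 equal groups of H3K4me2 fold over input (horizontal axis), for the shControl and shStau2 H3K4me3 lists; bars are exact 95% intervals of counting error. Both shares run from under 10% in the weakest groups to over 95% in the strongest, and the lists are farthest apart in the sixth to the eighth group.

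The position of a site and its H3K4me3 also went together. At gene starts, 85.9% of the H3K4me2 peaks (83.4 to 88.0) had H3K4me3 under shControl and 91.9% under shStau2. In gene bodies the shares were 11.1% and 17.8%, and outside genes 14.6% and 25.4%. In the rest of the list they were 86.5% and 92.1% at starts, 15.2% and 21.8% in gene bodies, and 14.3% and 23.8% outside genes. The gene-body shares were thus lower in the stretch and the others were close. Sites with H3K4me3 in both lists had their summit a median of 1.44 kb from the nearest protein-coding start. Sites with H3K4me3 under shStau2 only lay a median of 52.1 kb away and sites with none 44.6 kb. Of the 468 sites with H3K4me3 under shStau2 only, 12.4% were at a gene start, 28.4% in a gene body and 59.2% outside genes. Their spread over these places was thus closer to that of the sites with no H3K4me3, of which 2.02%, 44.9% and 53.0% lay there, than to that of the sites marked in both, of which 57.4% were at a start.

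The reverse view shows how far H3K4me3 kept to dimethylated chromatin. Of the 1305 shControl H3K4me3 peaks in the stretch, 1271 (97.4%, 96.4 to 98.2) overlapped one of the 5417 H3K4me2 peaks, and of the 1742 shStau2 peaks 1608 (92.3%, 91.0 to 93.5) did. In the rest of the list's reach the shares on H3K4me2 were close, at 98.2% of 16264 shControl peaks and 94.9% of 19728 shStau2 peaks. Of the shStau2 H3K4me3 peaks 647 (37.1%) had no shControl H3K4me3 peak over them, where chromosomes 1 to 22 and X gave 32%, and of the shControl peaks 20 (1.53%) had none of shStau2, where the genome gave 1.07%. Of the 647, 532 (82.2%, 79.1 to 85.1) still lay on a site that was dimethylated in control cells, against 86.1% (85.2 to 86.9) in the rest of the list's reach. These 647 peaks were small, of median width 316 bases and median fold 5.22.

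Where a site had H3K4me3 in both lists, the authors' fold was higher under shStau2 at nearly all of them. Over the 1371 sites the strongest H3K4me3 peak had a median fold of 17.3 under shControl and 37.9 under shStau2. The ratio at each site had a median of 2.03, with quartiles of 1.65 and 2.54, and was above 1 at 1334 sites and below it at 37. It reached 2 at 708 sites (51.6%), where the whole list gave 51.8%, and fell to 0.5 or less at 0 sites, where the whole list gave 0.032%. The 17352 such sites in the rest of the list had a median ratio of 2.03 as well. The sources name no spike-in, and the overall level of a library therefore has no outside scale. H3K4me3 covered a median of 877 bases of these sites under shControl and 1117 under shStau2, with more bases at 1257 sites, fewer at 65 and the same number at 49. A wide shStau2 peak can carry the fold of a summit that lies outside the site, and among the 893 H3K4me3 peaks on these sites that matched 1 to 1 the median ratio was 1.95, against 1.95 over 15552 such peaks of the genome.

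**Figure D2:**
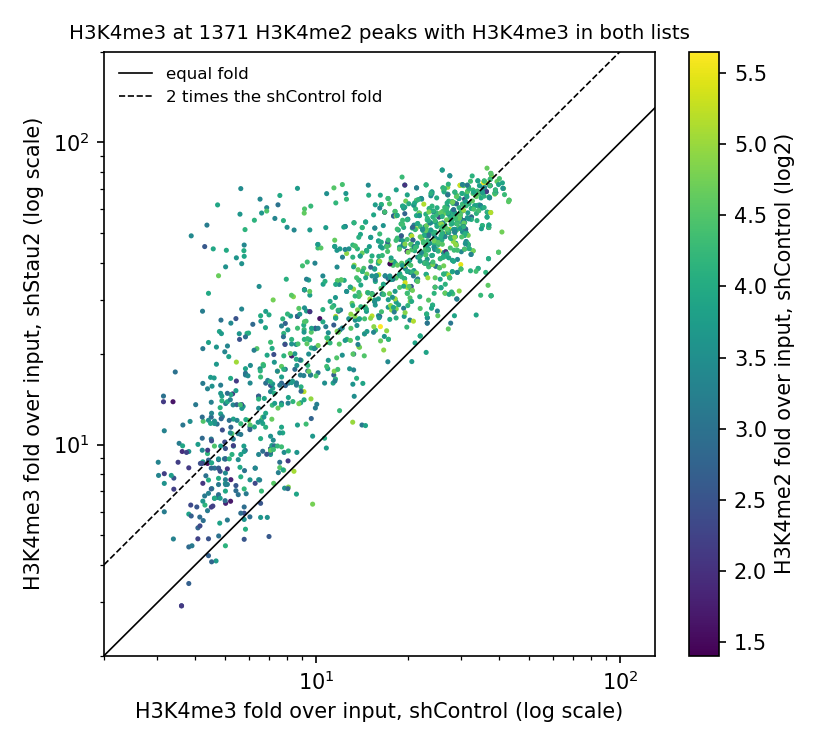
H3K4me3 fold over input under shControl (horizontal axis, log scale) and shStau2 (vertical axis, log scale) at the 1371 H3K4me2 peaks with H3K4me3 in both lists, 1 point a peak, coloured by the log2 of its H3K4me2 fold. Nearly all points lie above the line of equal fold and they spread around the dashed line of 2 times the shControl fold, with 708 at or above it.

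Gene starts were taken for the 960 of 1094 protein-coding genes of the stretch that have a start in the RefSeq promoter table, with 1 start per gene, so a gene that uses another start can appear unmarked. Within 1 kb of the start, 668 genes (69.6%, 66.6 to 72.5) had an H3K4me2 peak, where all starts within reach of the list gave 70.8%. H3K4me3 was present at 579 (60.3%, 57.1 to 63.4) under shControl, where all starts gave 63.4%, and at 634 (66.0%) under shStau2. Of the 579, 578 also had H3K4me2. H3K4me2 alone, with H3K4me3 in neither list, was found at 48 starts, and 275 had neither mark.

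At the 578 starts with both marks under shControl the marks were laid out differently. An H3K4me2 peak covered the start itself at 54.7% of them, but 500 bases downstream it covered 90.7% and 500 bases upstream 81.5%. An H3K4me3 peak of shControl covered 91.3% of the starts, 65.2% of the positions 1000 bases downstream and 16.8% of those 2000 bases downstream. H3K4me2 was lowest 50 bases upstream, at 52.9%, where H3K4me3 of shControl covered 81.5%, and H3K4me3 of shControl was most frequent 150 bases downstream, at 94.98%. At 242 of the 578 the start lay in an H3K4me3 peak but in no H3K4me2 peak, and at 239 of these 2 or more H3K4me2 peaks stood within 1 kb. Under shStau2 H3K4me3 reached farther, covering 96.5% of the starts, 76.3% of the positions at 1000 bases and 26.3% at 2000 bases.

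**Figure D3:**
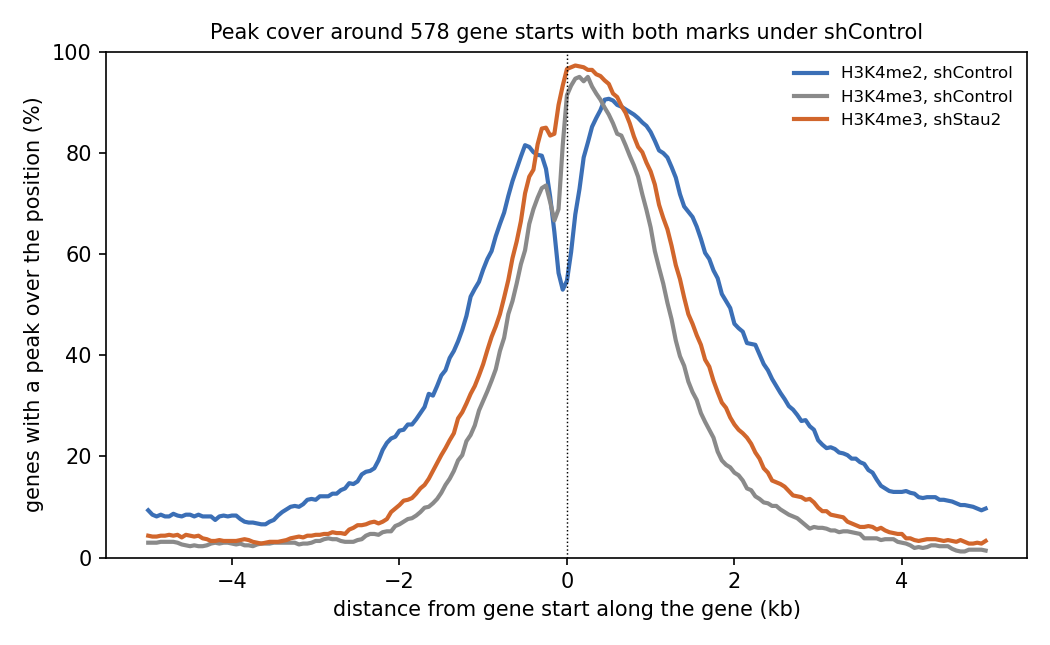
Percent of the 578 gene starts with both marks under shControl (vertical axis) that have a peak over each position from 5 kb before to 5 kb after the start (horizontal axis, along the gene), for the H3K4me2 list of shControl and the H3K4me3 lists of shControl and shStau2. H3K4me2 dips to 52.9% just before the start between shoulders of 81.5% and 90.7%, and H3K4me3 of shControl is highest at 94.98%, 150 bases after the start.

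The strongest H3K4me2 peak at a gene start was that of ZDHHC11B (chr5:782776-785666), which encodes an enzyme that attaches palmitate to proteins. Its H3K4me2 fold was 50.4, with an H3K4me3 fold of 16.3 under shControl and 24.6 under shStau2. ZDHHC11B has a near-identical neighbour, ZDHHC11, so its reads may be divided between the copies and its value is uncertain. The next was PRR7 (chr5:177445620-177447943), a membrane adaptor of neurons and T cells, at 49.2, with H3K4me3 of 25.4 and 43.8. LPCAT1 (chr5:1522328-1524863), which remodels phospholipids, had 47.4, with H3K4me3 of 35.4 and 73.5. ANKRD33B, CYFIP2, ANXA6, ANKH and PTGER4 followed at 44.7, 40.9, 37.6, 37.4 and 36.3. CYFIP2 belongs to the WAVE complex that builds actin networks, ANXA6 binds membranes in the presence of calcium, ANKH exports pyrophosphate and PTGER4 is a prostaglandin E2 receptor. All 8 had H3K4me3 in both lists, at 11.6 to 35.4 under shControl and 24.6 to 73.5 under shStau2, and the shStau2 value was the higher in each.

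The strongest H3K4me2 peaks with no H3K4me3 in either list all lay more than 10 kb from a protein-coding start. The highest, with a fold of 20.8, was inside MARCHF3 (chr5:126976170-126977807), a ubiquitin ligase gene, 53.7 kb from its start. A peak of fold 17.8 lay inside PDGFRB, the gene of a platelet-derived growth factor receptor, 16.6 kb from the start of CSF1R, the receptor of the macrophage growth factor (chr5:150129645-150130376). Neither of these receptor genes had H3K4me3 at its start, CSF1R had neither mark there, and PDGFRB had an H3K4me2 peak of fold 7.94. Peaks of fold 17.6 lay inside FYB1, a haematopoietic adaptor gene, and 23.1 kb from the start of GMPR. GMPR encodes guanosine monophosphate reductase, which is abundant in red cells, and its own start had H3K4me2 of 16.8. A peak 4820 bases wide inside JARID2 (chr6:15296645-15301464) had a fold of 17.3, and the others were near LY86 (19.2), in ANKRD33B (17.2) and near NHP2 (16.6).

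The widest peak, of 11895 bases, ran over the histone genes H2BC12 and H4C9 (chr6:27134717-27146611), where H3K4me3 covered 9263 bases under shControl and 10518 under shStau2. The next were at LOC124900193 (9881 bases), NR3C1 (9284 bases), CPEB4 (8513 bases) and ARL15 (8227 bases). NR3C1 encodes the glucocorticoid receptor and CPEB4 an RNA-binding protein that regulates polyadenylation. Counted within these H3K4me2 peaks, H3K4me3 covered more bases under shStau2 than under shControl at all 5.

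The site with the largest surplus of H3K4me3 bases under shStau2 was inside TNFAIP8, an apoptosis regulator induced by tumour necrosis factor, 52.8 kb from its start (chr5:119319525-119323224). This site had an H3K4me2 fold of 18.9, no H3K4me3 peak under shControl and 2434 bases of H3K4me3 under shStau2 in 3 peaks of fold up to 9.41. A site 855 kb from the nearest start, that of MAT2B (chr5:164354937-164361589), had 338 bases under shControl and 2723 under shStau2, and the wide peak of ARL15 had 3507 and 5669. A site 34.3 kb from H4C8 had 2578 and 4413 bases, and a site 8.92 kb from SSBP2 had 1248 and 3021. Differences the other way were smaller. The peak in PSD2 (H3K4me2 fold 33.9) had 1710 bases under shControl and 1494 under shStau2, and that at PGGT1B had 1349 and 1138, although its H3K4me3 fold was 23.2 under shControl and 45.7 under shStau2. The other sites of this kind had 411, 218 and 207 bases under shControl and 0 under shStau2, and lay near PCDH1 and at the starts of ARSI and PCDHA1. The 5 sites with H3K4me3 under shControl only, which also include sites near LRRC14B and SIMC1, had H3K4me3 folds of 3.01 to 6.04.

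Among H3K4me3 peaks of shStau2 only that lay on one of the H3K4me2 peaks, the strongest was at the start of MYO10, which encodes an unconventional myosin of filopodia. The H3K4me3 peak (chr5:16935805-16936325) had a fold of 13.7, on an H3K4me2 peak of fold 19.3. The next were 1.39 kb from the start of EFNA5, an ephrin ligand (12.6, on H3K4me2 of 19.01), 9.56 kb from DELE1, a mitochondrial stress messenger (12.5, on 8.54), and in FST, the activin antagonist follistatin (12.3, on 16.6). The other 4 of the 8 strongest had folds of 11.5 to 12.2. The strongest of the reverse kind was at ARSI, with H3K4me3 of 6.04 under shControl. The others of the 4 strongest had folds of 4.73 to 5.03. They lay inside RNF182, 22.2 kb from the start of SIMC1 and 0.351 kb from the start of DDX46. These are single peaks and not whole gene starts: within 1 kb of its start DDX46 had H3K4me3 in both lists, at 20.9 under shControl and 62.1 under shStau2.

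Counted at gene starts, 58 of 960 genes (6.04%, 4.62 to 7.74) had H3K4me3 under shStau2 only and 3 under shControl only. The genome gave 3.38% and 0.0822%, and the genes within the rest of the list's reach 3.09% (2.78 to 3.41). Neighbouring genes that share a peak were each counted, and the intervals take each gene as separate. Such pairs among the 58 include ITGA1 with PELO, LOC124901001 with TMEM171, DMGDH with BHMT2, and H2AC1 with H2BC1. Protocadherins made up 10 of the 58, the TAF11L genes of 5p15 made up 5 and histone genes 3. The other 864 genes gave 40 (4.63%, 3.33 to 6.25). The TAF11L genes are near-identical copies of each other, with H3K4me3 folds of 1.93 to 4.46, and their calls are uncertain. At 42 of the 58 the start had H3K4me2 in control cells, where 69.6% of all 960 starts had it, and in the rest of the list's reach 313 of 367 such genes did. Thresholds of 3.97 fold for shControl and 8.20 for shStau2 differ by the genome-wide ratio of 2.07 between the medians of matched peaks. With them, 15 of 960 genes had H3K4me3 above threshold under shStau2 only, where the genome gave 0.734%. Above threshold under shControl only were 16 of 960, where the genome gave 0.999%. Of the 16, only ARSI had no shStau2 H3K4me3 peak within 1 kb of its start. The others had shStau2 folds of 4.87 to 8.15, below the raised threshold. Of the 15, 13 were among the 58, and they include MYO10, ZNF608 (12.03), RNF144B (10.1), NRG2 (9.88), CCNJL (9.88), AFAP1L1 (9.70) and AHRR (9.14). RNF144B is a ubiquitin ligase, NRG2 a neuregulin ligand and AHRR the repressor of the aryl hydrocarbon receptor. At IL12B, listed among the 58 with a fold of 21.3, the H3K4me3 peak reaches only 27 bases into the 1 kb window and overlaps a shControl peak outside it, and the peak of ZNF608 likewise overlaps a shControl peak outside its window.

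Genes of basic cell functions were marked almost without exception. All 24 cell cycle genes with a start, all 21 genes of RNA-binding proteins and all 4 ribosomal genes had H3K4me2, and H3K4me3 in both lists. So did all 5 genes of the erythroid and iron list, which are SLC22A4, SFXN1, ATOX1, GMPR and HFE. Over all 960 genes the share with H3K4me2 was 69.6%, and 576 (60.0%) had H3K4me2 with H3K4me3 in both lists. CCNB1, the mitotic cyclin B1, had an H3K4me2 fold of 27.2, with H3K4me3 of 14.4 under shControl and 23.3 under shStau2. CDC25C, a phosphatase of entry into mitosis, had 24.1, 29.1 and 51.4 in the same order. HNRNPH1, a splicing regulator, had 31.0, 16.2 and 40.4, and G3BP1, a core protein of stress granules, 30.2, 21.7 and 64.7. RPS14, the ribosomal gene whose loss underlies the anaemia of the 5q deletion, had 15.1, 25.03 and 44.1. SFXN1, a mitochondrial serine transporter, had 23.7, 32.7 and 64.0. All 15 mitochondrial genes had H3K4me2 and 14 had H3K4me3 under shControl. Of 20 chromatin genes 18 had H3K4me2, among them SAP30L, a subunit of a histone deacetylase complex, at 35.8, with H3K4me3 of 37.5 and 58.6. KDM1B, which removes methyl groups from H3K4, had an H3K4me2 fold of 15.1, with H3K4me3 of 32.9 under shControl and 68.3 under shStau2.

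Of 26 genes of the 5q arm named in myeloid disease, 23 had H3K4me2 and 22 H3K4me3 in both lists. EGR1, an immediate early transcription factor, had an H3K4me2 fold of 23.9, with H3K4me3 of 19.9 and 31.7. This H3K4me2 fold is that of a peak (chr5:138463259-138464999) that ends before the promoter shown above, which lay under another H3K4me2 peak. MATR3, a nuclear matrix protein, had 25.7, 13.1 and 29.3, and CXXC5, which binds unmethylated CG, 23.5, 28.9 and 66.2. PPP2CA, the catalytic subunit of protein phosphatase 2A, was the exception in direction, with an H3K4me2 fold of 23.3 and H3K4me3 of 34.8 under shControl and 31.2 under shStau2. SPARC, an extracellular matrix protein, had H3K4me2 alone, with a fold of 5.36. Of 22 genes of leukaemia and growth signalling 16 (72.7%, near the 69.6% of all starts) had H3K4me2, led by PIK3R1, a regulatory subunit of PI3 kinase, at 31.0, and 6 had neither mark, among them IL3, CSF2 and IRF4.

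The myeloid, lymphoid and megakaryocyte lists held both marked and unmarked starts. Over all 960 starts 69.6% had H3K4me2, 60.3% had H3K4me3 under shControl and 66.0% under shStau2, and 28.6% had neither mark. Of 21 myeloid genes 11 (52.4%) had H3K4me2 and 9 H3K4me3 in both lists. The 10 with neither mark include CD14, the monocyte receptor for bacterial lipopolysaccharide, and CSF1R. HBEGF, a growth factor of the epidermal family, was highest at 28.6, with H3K4me3 of 11.5 and 17.5. DOK3, an adaptor that dampens immune receptor signals, had an H3K4me2 fold of 24.3 and H3K4me3 in neither list. Its H3K4me2 peak covered 322 bases of the 1 kb windows and did not reach the start. CD74, the invariant chain of antigen presentation, had 5.92 and likewise no H3K4me3. Of 16 lymphoid genes 10 (62.5%, near the share of all starts) had H3K4me2, 7 had H3K4me3 under shControl and 9 under shStau2. IRF1, the interferon regulatory factor, had 29.6, 27.1 and 71.0, and EBF1, the B cell factor, 23.5, 14.5 and 28.6. At EBF1, however, H3K4me3 covered only 70 bases of the 1 kb windows under shControl and 93 under shStau2. The H3K4me2 peak of EBF1 did not cover the start itself. IL4 had H3K4me2 alone at 6.09, and IL7R, IL9 and IL13 had neither mark. Of 9 genes on the megakaryocyte list 6 (66.7%, also near the share of all starts) had H3K4me2. The highest fold on that list was 27.1, at F2RL1.

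Over all 960 starts 28.6% had neither mark, and genes of other tissues differed in this share. Of 23 neuronal genes 18 had neither mark, among them the GABA receptor subunit genes GABRB2 and GABRA6, the cadherins CDH9, CDH10, CDH12 and CDH18, and DRD1, a dopamine receptor. In all, 5 had H3K4me2, of which SNCB, beta-synuclein, was highest at 21.9, with H3K4me3 of 4.62 and 9.88. Of 10 hepatocyte genes 8 had neither mark, with coagulation factors F11 and F12 and the complement genes C6, C7 and C9 among them. Of 22 developmental transcription factors 12 had neither mark, while FOXD1 had H3K4me2 of 34.3 with H3K4me3 of 16.1 and 36.5, and PITX1 17.5 with 27.2 and 72.7. TFAP2A and NEUROG1 had H3K4me3 under shStau2 only, at 6.21 and 3.87. Of 15 genes on the fibroblast list 11 had H3K4me2 (73.3%, near the 69.6% of all starts). Among them were FAT1, a giant cadherin, at 27.3 and BMP6, a ligand that regulates iron, at 27.1.

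Protocadherins are adhesion proteins of neurons encoded in 3 neighbouring clusters. Of 47 starts 32 (68.1%) had H3K4me2, 14 had H3K4me3 under shControl and 23 under shStau2. Over all 960 starts the shares were 69.6%, 60.3% and 66.0%, so the share with H3K4me2 was near that of all genes. In all, 9 had H3K4me2 alone. In the gamma cluster 17 of 20 starts had H3K4me2, 11 H3K4me3 under shControl and 16 under shStau2. In the beta cluster 8 of 14 had H3K4me2, 0 H3K4me3 under shControl and 3 under shStau2, and in the alpha cluster the counts were 7, 3 and 4 of 13. PCDHGB1 was highest with H3K4me2 of 16.6 and H3K4me3 of 8.59 and 19.2. PCDHB15, shown above, had 11.3 and an H3K4me3 fold of 8.15 under shStau2 only. The median H3K4me2 fold of marked protocadherins was 7.55, against 17.2 over all genes with H3K4me2. The family's exons are similar in sequence, so its peaks are less certain than others.

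Of 36 histone gene starts 26 (72.2%, against 69.6% of all 960) had H3K4me2, 24 had H3K4me3 under shControl and 27 under shStau2, and 9 had neither mark, so these shares were near those of all genes. H1-3, a linker histone gene, was highest with H3K4me2 of 30.2 and H3K4me3 of 16.7 and 20.6. Neighbouring histone genes share wide peaks: H1-4 and H2BC5 share an H3K4me2 peak of fold 22.4, and H3C2 and H2AC4 share another of the same fold. H2BC6, H2AC1 and H2BC1 had H3K4me3 under shStau2 only, with folds of 6.89, 2.90 and 2.90.

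**Figure D4:**
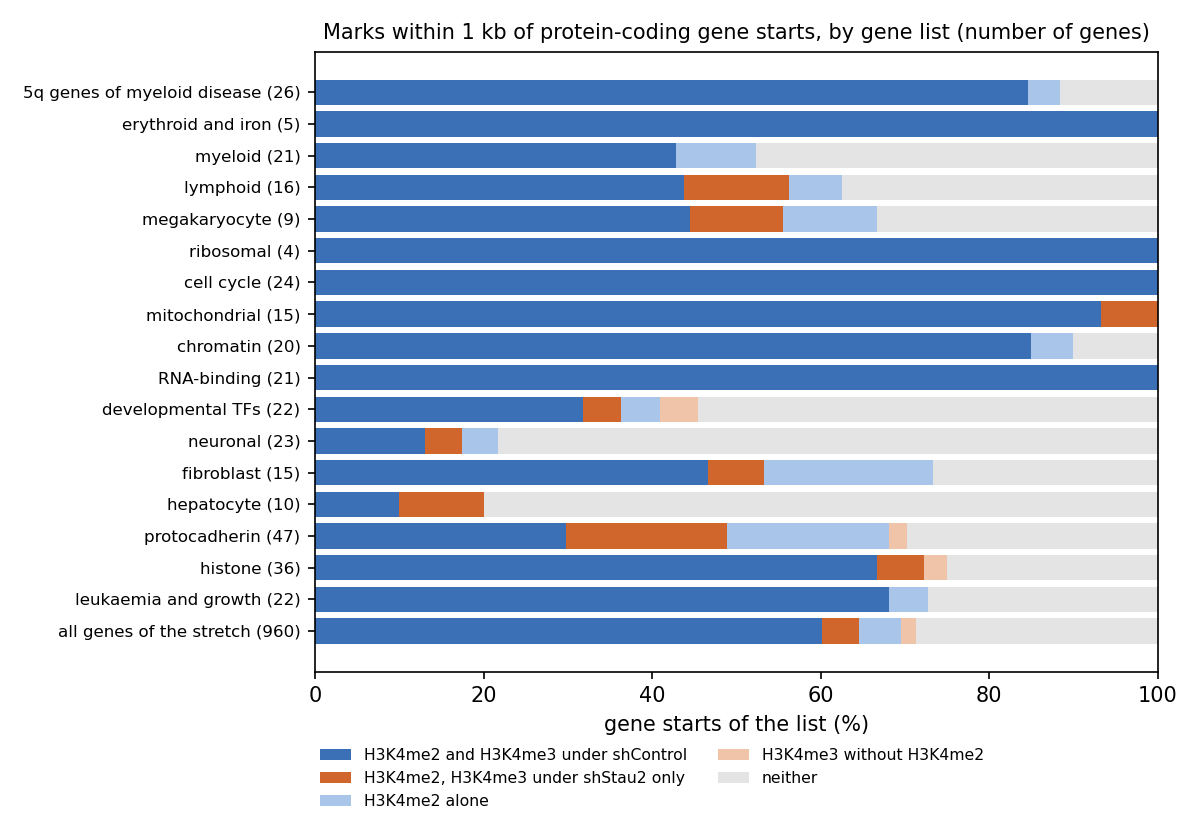
Percent of the gene starts of each list (horizontal axis) with H3K4me2 and H3K4me3 under shControl, H3K4me2 with H3K4me3 under shStau2 only, H3K4me2 alone, H3K4me3 without H3K4me2, or neither; the number of genes stands beside each name. The cell cycle, RNA-binding, ribosomal and erythroid bars are filled by the first class, the neuronal and hepatocyte bars mostly by the last, and the protocadherin bar has 9 of 47 starts with H3K4me2 and with H3K4me3 under shStau2 only.

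Marked promoters were richer in CG. The 300 bases around the start, 250 before and 50 after, held a median of 27 CG at starts with both marks under shControl, 18.5 at dimethylated starts with H3K4me3 under shStau2 only, 9 at starts with H3K4me2 alone and 7 at unmarked starts, against 22 over all 960. Of 131 promoters with 0 to 4 CG, 22.9% had H3K4me2 and 10.7% H3K4me3 under shControl. Of 282 with 30 or more, 85.5% and 81.6% did. The letters GGGCGG, the box of SP factors, were searched on both strands and found in 70.6% of promoters with both marks, 20.8% of those with H3K4me2 alone and 35.6% of unmarked ones, against 58.5% of all 15812 promoters. CCGGAA, the core of ETS sites, was found in 29.2%, 4.17% and 7.27%, against 22.8% of all. AGATAA or TGATAA, the GATA site of blood cells, was found in 9.69% of promoters with both marks, in 14 of 48 (29.2%) with H3K4me2 alone and in 14.9% of unmarked ones, against 11.98% of all. TATAAA was found in 7.79%, 4.17% and 18.5%, against 9.64% of all. None of these motifs contains another, and a match is a run of letters and not a measured site.

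**Figure D5:**
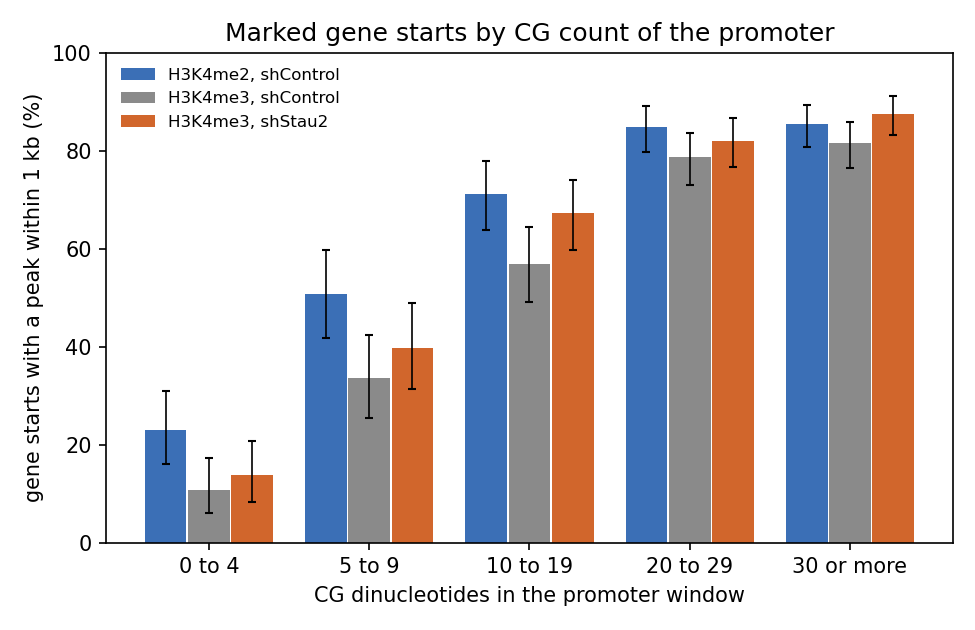
Percent of gene starts with a peak within 1 kb (vertical axis) by the number of CG dinucleotides in the promoter window (horizontal axis), for H3K4me2 of shControl and H3K4me3 of shControl and shStau2; error bars are exact 95% intervals of counting error. H3K4me2 runs from 22.9% to 85.5% and H3K4me3 of shControl from 10.7% to 81.6%, and the gap between the marks is widest below 20 CG.

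Transfer RNA genes, examined after their values were seen in the windows below, were mostly marked. Of 101 in the stretch, 92 (91.1%, 83.8 to 95.8) had an H3K4me2 peak within 500 bases, 81 had H3K4me3 under shControl and 88 under shStau2. In the rest of the list's reach 84.4% (79.1 to 88.8) of 237 had H3K4me2. Of the 101, 83 lie on chromosome 6 and 18 on chromosome 5. Near them stood 81 H3K4me2 peaks that were at no protein-coding start, of median fold 11.9 and median width 1668 bases. Of these, 63 (77.8%, 67.2 to 86.3) had H3K4me3 under shControl and 72 (88.9%) under shStau2, at median folds of 14.2 and 23.9. The 4417 peaks near neither kind of start had a median fold of 5.23, and 11.9% had H3K4me3 under shControl. Of the 107 peaks outside genes on chromosome 6 that had H3K4me3 under shControl, 52 were near a transfer RNA gene. Transfer RNA genes have near-identical copies, so reads within them are uncertain, while the width of these peaks takes in the flanks.

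Of 73 microRNA hairpins in the stretch, 21 had an H3K4me2 peak within 1 kb, 12 H3K4me3 under shControl and 14 under shStau2. Hairpins outside the stretch were not counted, so whether these counts are high or low for the list is not known. The miR-145 and miR-449 loci are shown, with the mature sequence from RefSeq on GRCh38.p14 and bases 2 to 8, the seed, in capitals. The hairpin of miR-145, a microRNA of 5q32 known as a tumour suppressor and as lost in the 5q deletion, lay inside an H3K4me2 peak of fold 19.96 (chr5:149430193-149431696), with H3K4me3 of 10.8 under shControl and 18.1 under shStau2. The miR-449 cluster lies inside CDC20B and is known from ciliated epithelium.
hsa-miR-145-5p (chr5:149430661-149430683, + strand): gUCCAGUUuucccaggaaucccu
hsa-miR-449a (chr5:55170586-55170607, - strand): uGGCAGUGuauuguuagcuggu
hsa-miR-449b-5p (chr5:55170706-55170727, - strand): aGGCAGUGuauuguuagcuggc
hsa-miR-449c-5p (chr5:55172313-55172337, - strand): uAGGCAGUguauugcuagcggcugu
miR-449a and miR-449b-5p share the seed GGCAGUG, and miR-449c-5p has AGGCAGU, the same run shifted by 1 base. The H3K4me2 peak at the miR-449c hairpin, of fold 28.4 with H3K4me3 of 13.9 and 31.3, is also the peak over the start of CDC20B. Near the miR-449a and miR-449b hairpins the H3K4me2 fold was 6.53 with no H3K4me3. The miR-9-2 hairpin, of a neuronal microRNA, lay in an H3K4me2 peak of fold 11.2, with H3K4me3 of 4.77 and 8.96.

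The peaks were uneven along the chromosomes. In 4275 windows of 50 kb, 2456 held no H3K4me2 peak, while 49 windows with 10 or more held 583 peaks (10.8%). The densest, at CPEB4, held 18, of which 3 had H3K4me3 in each list. A window inside TNFAIP8 held 17, of which 1 had H3K4me3 under shControl and 2 under shStau2. The window with TRIM7, TRIM41 and RACK1 near the end of chromosome 5 held 16 and 5 transfer RNA genes. A window on chromosome 6 with no protein-coding gene (chr6:26700001-26750000) held 16 and 6 transfer RNA genes, and 6 of its 16 had H3K4me3 under shControl and 7 under shStau2. A window inside JARID2, a gene of a Polycomb cofactor, held 16 with a median fold of 4.66, and 0 of them had H3K4me3 in either list.

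The longest run without H3K4me2 (chr5:44940967-50667771) was 5727 kb long and spans the centromere of chromosome 5. The next, of 2906 kb, holds PRDM9 and CDH10 and part of CDH12. The other 3 of the 5 longest were 2844 kb, 2081 kb, near DTWD2, and 1959 kb, at CDH9. H3K4me3 peaks were few in them: 0 under shControl and 2 under shStau2 in the longest, and 2 and 3 at CDH9.

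H3K4me3 without H3K4me2 was rare. Under shControl 34 of the 1305 H3K4me3 peaks lay on no H3K4me2 peak, where the rest of the list's reach gave 294 of 16264. The median fold of the 34 was 4.01, against 12.4 for those on an H3K4me2 peak. Among peaks of both lists the strongest lay on the distal long arm of chromosome 4 (chr4:188738297-188738724), 599 kb from TRIML1, with a fold of 14.7 under shControl and 31.6 under shStau2. The others of the 5 strongest had 4.14 to 6.81 under shControl and 9.58 to 14.5 under shStau2, and COL23A1, JAKMIP2 and PRR16 held 1 each.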

How the data were processed

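Peaks came from 3 ChIP libraries of K562 cells, 1 per group (H3K4me2 and H3K4me3 under shControl, H3K4me3 under shStau2), grouped by sample title, and each was called against the input of its hairpin. Alignment was to hg38 with Bowtie2, of a version not given in the sources used here, and peak calling was with MACS2, per the submitters' processing notes. The version was 2.1.2, run per the file headers with a q-value threshold of 0.05, a fragment length of 200 bases, 76-base tags, 1 tag per position, and with the larger data set scaled to the smaller. The deposited lists give the pileup signal at the summit, the fold enrichment as a ratio to local background, and −log10 of the p-value and q-value. With 26221869 to 30744332 tags per library, calls just past the threshold are the least precise.

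Peaks were joined by an overlap of 1 base or more. Overlap counts differed from bedtools 2.31.1 by 0 peaks, and planted overlaps were recovered when tested on simulated data. Gene coordinates and starts came from RefSeq tables of GRCh38.p14, the build of the peaks, with windows of 1 kb. The promoter table holds starts for 15812 of 19974 protein-coding genes. Members and gene lists were chosen with earlier results of these data known, so they are no independent support. Named peaks followed a rule: the 8 strongest at starts, the 8 strongest without H3K4me3, the 5 widest, the 5 largest differences of H3K4me3 bases in each direction, the 8 shStau2-only and 4 shControl-only H3K4me3 peaks of highest fold on an H3K4me2 peak of the stretch, the 5 densest windows, the 5 longest gaps, KDM1B and up to 4 genes per list. Some genes taken by it are not reported here. List genes given as unmarked, as marked by H3K4me2 alone or by H3K4me3 under shStau2 only, the promoters and microRNAs shown, the gene families among such starts and the transfer RNA genes were chosen after their values were seen. PPP2CA lies outside the rule and was likewise named after its values were seen, for the direction of its H3K4me3. Alternatives were stricter peak thresholds, equal peak numbers, merged peaks, larger overlaps, other windows and 1 to 1 matching; a raised threshold and both gene ends were added after seeing the data. Software was Python 3.11.15 with scipy 1.17.1, pandas 2.3.3, numpy 2.4.6 and, for plots, matplotlib 3.10.9.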

Additional observations from a re-analysis of the deposited data

How the results depend on the processing

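Of 53 alternative values, 26 were counted as near the reported one and 27 as moved. Those counted as near include some sizeable shifts. The 468 peaks with H3K4me3 under shStau2 only became 571 with 50% of the peak covered. That count was 366 with an H3K4me2 fold of 5 or more and 354 on chromosome 5 alone. With −log10 q of 10 or more, the median fold of the H3K4me2 peaks was 11.1 and their width 1219.5 bases; 45.3% had H3K4me3 under shControl and 56.3% under shStau2, 262 under shStau2 only and 0 under shControl only, and 34.4% were at a gene start. With an H3K4me2 fold of 5 or more these shares were 39.5%, 50.2% and 25.6% at a start. With 50% of the peak covered they were 16.7% and 27.2%. With equal numbers of H3K4me3 peaks, 30.2% had H3K4me3 under shStau2, 283 under shStau2 only and 22 under shControl only, and 31 genes had H3K4me3 under shStau2 only. With the raised threshold, these were 25.3%, 109, 78 and 15, and 16 genes had it under shControl only. All of these 16 but ARSI had a shStau2 H3K4me3 peak below that threshold. Merging peaks within 1 kb gave a width of 752 bases. Peaks at a start were 18.5% on chromosome 5 alone, 15.7% with windows of 0.5 kb and 19.6% with 2.5 kb. With H3K4me3 peaks matched 1 to 1, median folds were 14.0 and 28.6. The cause of each move was not tested, beyond the fewer or weaker peaks that each setting leaves. The shStau2-only surplus over shControl-only H3K4me3, 468 against 5 peaks and 58 against 3 genes as reported, was much smaller for peaks and not seen for genes at the raised threshold. No paired analysis was possible because each group is 1 library.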
